A study of Mus musculus with 13 samples.

Results

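The sarcoplasmic reticulum is the internal calcium store of muscle fibres, and 10 of its calcium handling genes and their partners were followed here: the pumps Atp2a1 and Atp2a2, the pump regulators Sln and Pln, the luminal proteins Casq1, Casq2 and Srl, the release channels Ryr1 and Itpr1, and the cytosolic buffer Pvalb. They were chosen by gene name for their roles, and every probe that carried a name was used, which gave 12 of the 55681 probes of the array. Of the 17257 genes with a probe bright enough to test, 9 belonged to the set. The tenth, Pln, was well above background on too few arrays to test.

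RNA came from the gastrocnemius, a calf muscle, of adult male C57BL/6J mice, 7 with a UCP1 transgene and 6 of their wild type littermates. In brown fat, UCP1 carries protons back across the inner mitochondrial membrane, so that respiration gives heat in place of ATP. Both groups ate a purified low fat diet for 12 weeks, and 12 weeks is also the age that the series text gives for the wild type mice. These cannot both hold at the end of the diet, so the age at sampling is not settled here. The promoter that drives the transgene is not given in the sources used here. Each mouse was labelled with Cy5 on an array of its own and hybridised against 1 common Cy3 pool, so a level below is a log2 ratio of mouse over pool, and a difference is the mean of UCP1 transgenic (UCP1 TG) minus the mean of wild type (WT) on that scale. The number of mice limits the precision.

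Between 20643 and 24036 probes per array were well above background, and 0 spots were saturated. All 10 genes of a list of skeletal muscle fibre markers were detected on every array, and of 7 heart markers Myh6 and Tnnt2 were well above background on 13 arrays, Nppa on 5, Nppb on 1, and Myl7, Tnni3 and Mybpc3 on 0. The Ucp1 probe read -0.20 to 0.85 in UCP1 TG mice. In WT mice it read -4.23 to -2.82 on 5 arrays and 0.45 on the array labelled WT 4, which goes against that label. The mean log2 ratio of 5 brown adipocyte genes, Ucp1 not among them, was -0.27 to -0.01 on UCP1 TG arrays, -0.52 to -0.10 on the other 5 WT arrays and 0.36 on WT 4. The part of such cells in the Ucp1 signal was not tested. Each gene of the set was also tested without this array, and no call on a gene changed; of the single probes, the dimmer Atp2a2 probe lost its call. The 13 arrays lay on 4 slides that each held both groups.

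In a resting fibre, calcium is held inside the reticulum, bound to calsequestrin. Depolarisation of the transverse tubule opens the ryanodine receptor, calcium floods the cytosol and the filaments contract, and a calcium ATPase (SERCA) then pumps the calcium back at the cost of ATP. Fast fibres use the pump SERCA1, calsequestrin 1 and much parvalbumin, which takes up calcium between contractions. Slow fibres use SERCA2 and also hold calsequestrin 2, as the heart does. Sarcolipin and phospholamban are small membrane proteins that slow the pump, and sarcolipin also lets it split ATP without moving calcium, which gives heat.

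The array probes that read these genes are shown first, since the ratios rest on them. They are 60 bases long and written 5′ to 3′ in the sense of the mRNA, with mm9 coordinates from the file. The Casq1 and Ryr1 probes stretch over 1504 and 699 genomic bases, more than the 60 bases of the probe, so each crosses an intron. Of the Itpr1 probe only the first 30 bases are given, with the coordinates of those bases. No part is marked by capitals in these lines.
Atp2a1 (chr7:133591703-133591762, minus strand): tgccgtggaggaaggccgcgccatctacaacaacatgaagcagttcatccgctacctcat
Atp2a2, the dimmer of its probes (chr5:122910660-122910719, minus strand): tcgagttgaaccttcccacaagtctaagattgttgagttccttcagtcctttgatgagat
Casq1 (chr1:174140602-174142105, minus strand): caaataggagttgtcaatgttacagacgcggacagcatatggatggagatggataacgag
Ryr1 (chr7:29788789-29789487, minus strand): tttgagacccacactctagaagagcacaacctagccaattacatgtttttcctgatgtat
Itpr1 (chr6:108501025-108501054, plus strand): gaaccgtatgcagagttccgaagcaagtca

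Of the 9 measured genes, 2 rose and 3 fell in UCP1 TG muscle, and 4 did not pass the threshold, an adjusted p of 0.05. Among all 17257 genes, 33.0% passed, 16.9% higher and 16.1% lower. Itpr1, Pvalb and Casq1 fell, while Atp2a2 and Casq2 rose. The median difference of the 9 genes was -0.05, that of all genes -0.001. At the level of single probes, 7 of the 11 measured probes of the set passed, against 31.8% of all 22716 probes.

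**Figure D1:**
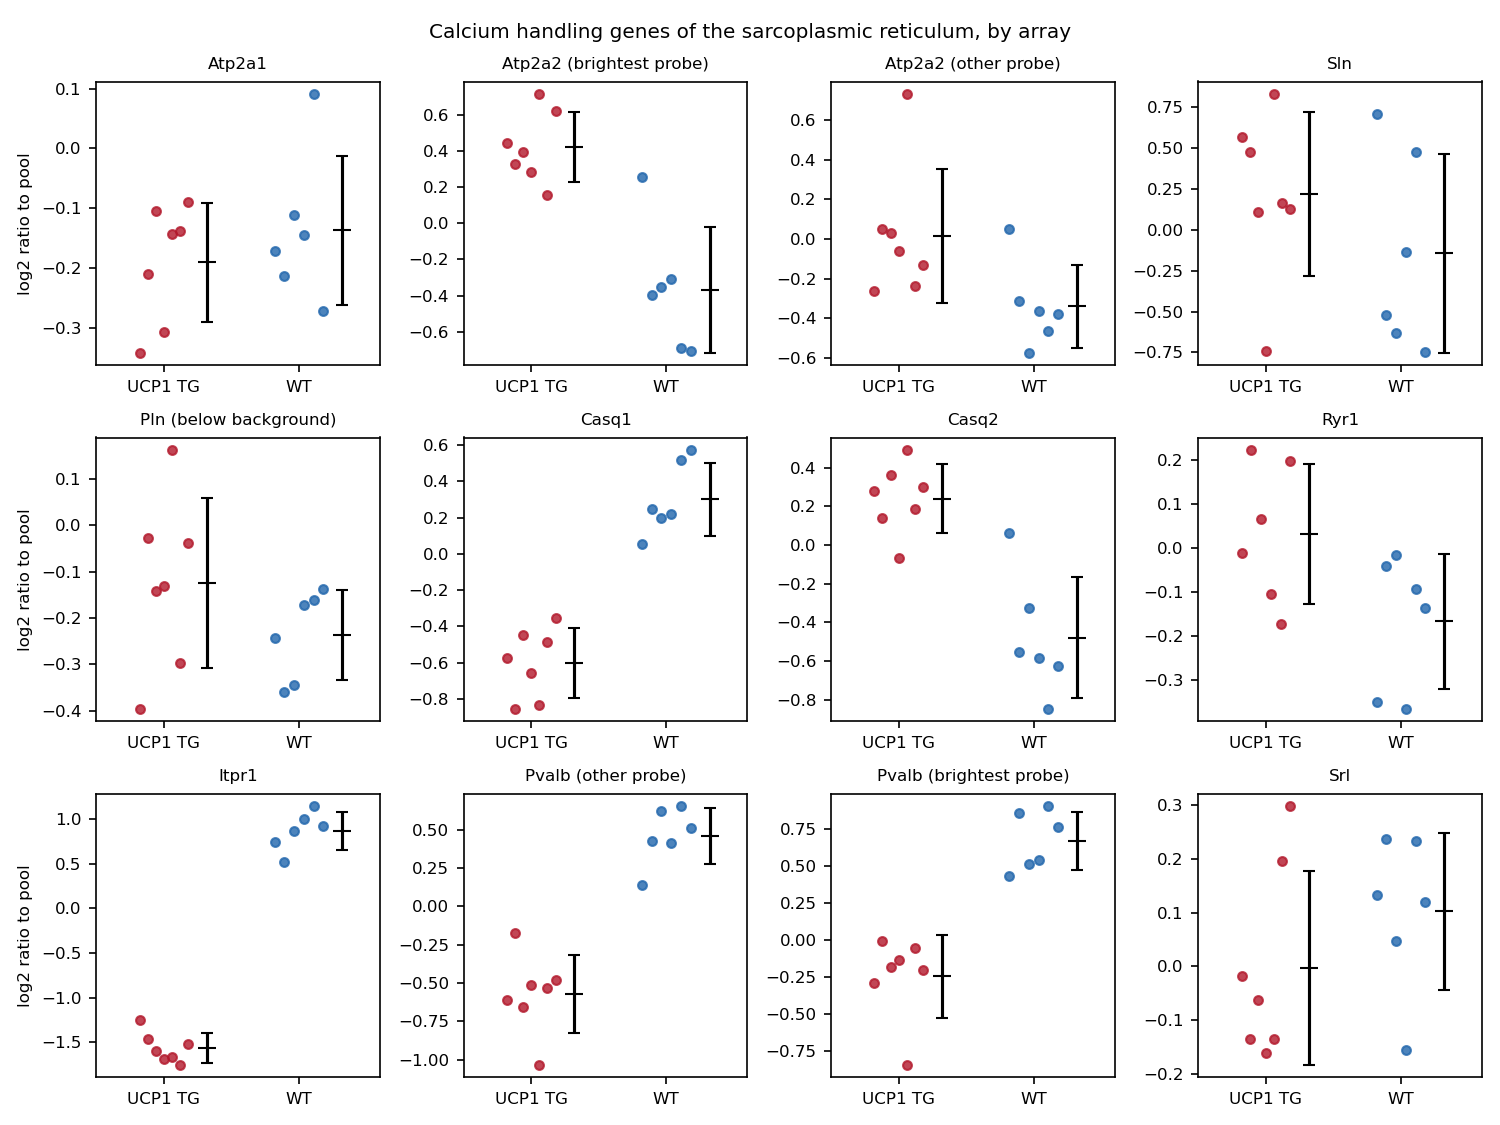
Log2 ratio of mouse over reference pool (vertical axis, own scale in each panel) for the 12 probes, 1 point per array, UCP1 TG in red on the left and WT in blue on the right, with mean and SD as black bars. The 7 UCP1 TG arrays lie below all 6 WT arrays for Itpr1, Casq1 and both Pvalb probes, and Pln was well above background on only 1 array.

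Among the pumps, the slow form changed and the fast form did not pass. Atp2a2 encodes SERCA2. Its brightest probe (chr5:122903704-122903763) read 0.15, 0.39 and 0.71 in UCP1 TG mice (lowest, median, highest) and -0.70, -0.37 and 0.25 in WT mice. Of the 7 UCP1 TG arrays, 6 lay above all WT arrays, and the overlap came from the lowest UCP1 TG ratio of 0.15 lying under the 0.25 of the array WT 1. The difference was 0.79 ± 0.13 (SE), a 1.72-fold higher signal (limma, Benjamini-Hochberg adjusted p = 7.92e-05). The dimmer Atp2a2 probe read -0.26, -0.06 and 0.73 in UCP1 TG mice and -0.57, -0.37 and 0.05 in WT mice. Only UCP1 TG 5 lay above all WT arrays on it, and the difference was 0.36 ± 0.13 (SE, limma adjusted p = 0.0437 over all probes). This call was lost in 9 of 13 leave-outs of a single array (UCP1 TG 2 to 5 and WT 2 to 6) and under 6 of 11 other settings, with differences of 0.24 to 0.43 and 0.30 to 0.52; without WT 4 it was 0.35 (adjusted p = 0.0646), and without UCP1 TG 5 it was 0.24 (adjusted p = 0.0653). Within slides 1 to 4 the differences were 0.13, 0.77, 0.81 and 1.08 on the brightest probe and -0.16, 0.47, 0.70 and 0.24 on the dimmer one, and WT 1 is the only WT array of slide 1.

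Atp2a1 encodes SERCA1, the pump of fast fibres. It read -0.34, -0.14 and -0.09 in UCP1 TG mice and -0.27, -0.16 and 0.09 in WT mice, and the groups overlapped over most of their range. The difference was -0.05 ± 0.07 (SE, limma adjusted p = 0.60) with a 95% interval of -0.20 to 0.09. It was 0.30 when arrays were centred on their median without loess, a scaling that moved the median of all genes to 0.14, and 0.077 in the authors' value table, so its sign is not settled. Taken within each mouse, the log2 ratio of Atp2a2 less that of Atp2a1 was 0.61 ± 0.19 (SD, n = 7) in UCP1 TG mice and -0.23 ± 0.39 (SD, n = 6) in WT mice. This is a contrast of ratios to the pool and not of amounts, since the levels of different probes cannot be set against each other.

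The pump regulators gave no call. Sln, sarcolipin, read -0.74, 0.16 and 0.83 in UCP1 TG mice and -0.75, -0.33 and 0.71 in WT mice. Both groups spread over almost the same range, and no other gene of the set varied as much within a group on the measured arrays. Its difference was 0.36 ± 0.24 (SE, limma adjusted p = 0.27), and the 95% interval of -0.14 to 0.86 holds both no change and a rise as large as that of Atp2a2. Pln, phospholamban, was well above background on 1 of 7 UCP1 TG arrays and 0 of 6 WT arrays, and in the pool on 4 of 13 arrays, so no fold is given. A further micropeptide inhibitor of SERCA, myoregulin (Mrln, named 2310015B20Rik on the array), is not of the 10 but fell by more than any other gene of its list. It read -1.59, -1.23 and -0.94 in UCP1 TG mice and 0.57, 0.67 and 0.89 in WT mice, without overlap. The signal was 3.91-fold lower (-1.97 ± 0.10, SE, limma adjusted p = 9.61e-12), and the difference was -1.68 under median centring without loess.

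Calsequestrin binds calcium in the lumen with high capacity, and its 2 forms moved in opposite directions. Casq1, the main form of skeletal muscle, read -0.85, -0.58 and -0.36 in UCP1 TG mice and 0.05, 0.23 and 0.57 in WT mice. All 7 UCP1 TG arrays lay below all 6 WT arrays, as was so for 3 of the 9 genes in the set and, in either direction, for 14.7% of all genes. Its signal was 1.87-fold lower (-0.90 ± 0.10, SE, limma adjusted p = 6.61e-07).

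Casq2, the form of the heart and of slow fibres, read -0.07, 0.28 and 0.49 in UCP1 TG mice and -0.85, -0.57 and 0.06 in WT mice. As with Atp2a2, 6 of the 7 UCP1 TG arrays lay above all WT arrays and the highest WT array was WT 1. The signal was 1.65-fold higher (0.72 ± 0.12, SE, limma adjusted p = 8.24e-05). Within each mouse the Casq2 ratio less the Casq1 ratio was 0.84 ± 0.25 (SD, n = 7) in UCP1 TG mice, from 0.59 to 1.32, and -0.78 ± 0.49 (SD, n = 6) in WT mice, from -1.36 to 0.01. Srl encodes sarcalumenin, another luminal calcium binding protein. Its ratios of -0.16, -0.06 and 0.30 in UCP1 TG mice and -0.16, 0.13 and 0.24 in WT mice covered each other, and its difference of -0.11 ± 0.09 (SE, limma adjusted p = 0.383) turned to 0.22 under median centring without loess.

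The release channels differed from each other most. Itpr1 encodes the type 1 receptor for inositol trisphosphate (IP3), a channel of the endoplasmic and sarcoplasmic reticulum that opens on a second messenger and not through the tubule. It read -1.75, -1.60 and -1.25 in UCP1 TG mice and 0.52, 0.89 and 1.14 in WT mice. A gap of 1.77 on the log2 scale separated the highest UCP1 TG array from the lowest WT array, and WT 4 read 1.00, inside the WT range. The signal, read by only 1 probe, was 5.37-fold lower (-2.42 ± 0.10, SE, limma adjusted p = 3.86e-13), the difference of greatest size in the set. Within the 4 slides it was -2.10, -2.29, -2.68 and -2.66. Over 12 other ways of processing it stayed between -2.64 and -2.18, and every leave-out of a single array kept it between -2.49 and -2.37.

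Ryr1, the ryanodine receptor of skeletal muscle and the main release channel, read -0.17, 0.03 and 0.22 in UCP1 TG mice (n = 6, as the spot of UCP1 TG 7 had an outlier flag) and -0.36, -0.11 and -0.02 in WT mice. The groups overlapped, with 4 UCP1 TG arrays above all WT arrays. Its difference of 0.20 ± 0.09 (SE) did not pass in the limma test (adjusted p = 0.0877). It passed under 5 of 12 other ways of processing, among them with the flagged spot kept (0.24, adjusted p = 0.0420), with the slide as a fixed block (0.27, adjusted p = 0.0076) and in the authors' value table (0.34, adjusted p = 0.00384). Without UCP1 TG 5 it was 0.24 (adjusted p = 0.0474), and without WT 4 it was 0.16 (adjusted p = 0.182). Within each of the 4 slides the difference was above 0, from 0.09 to 0.45.

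Pvalb encodes parvalbumin, the soluble calcium buffer that speeds relaxation of fast fibres. Its brightest probe (chr15:78021951-78022010) read -0.84, -0.18 and -0.01 in UCP1 TG mice and 0.43, 0.65 and 0.90 in WT mice. No UCP1 TG array reached the WT range on this probe or on the other (chr15:78021549-78021608). The differences were -0.91 ± 0.12 (SE, limma adjusted p = 5.08e-06), a 1.88-fold lower signal, and -1.03 ± 0.11 (SE, limma adjusted p = 4.32e-07 over all probes). The size depended on the scaling: on the brightest probe it was -0.48 with Agilent's own log ratio, -0.55 from the Cy5 channel alone and -0.71 in the authors' value table, and -0.50 under median centring without loess, where it did not pass (adjusted p = 0.166). Casq1 did not pass under median centring either (-0.60, adjusted p = 0.114). In that setting 1303 genes passed, 79.7% of them higher, against 51.1% in the values used here.

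**Figure D2:**
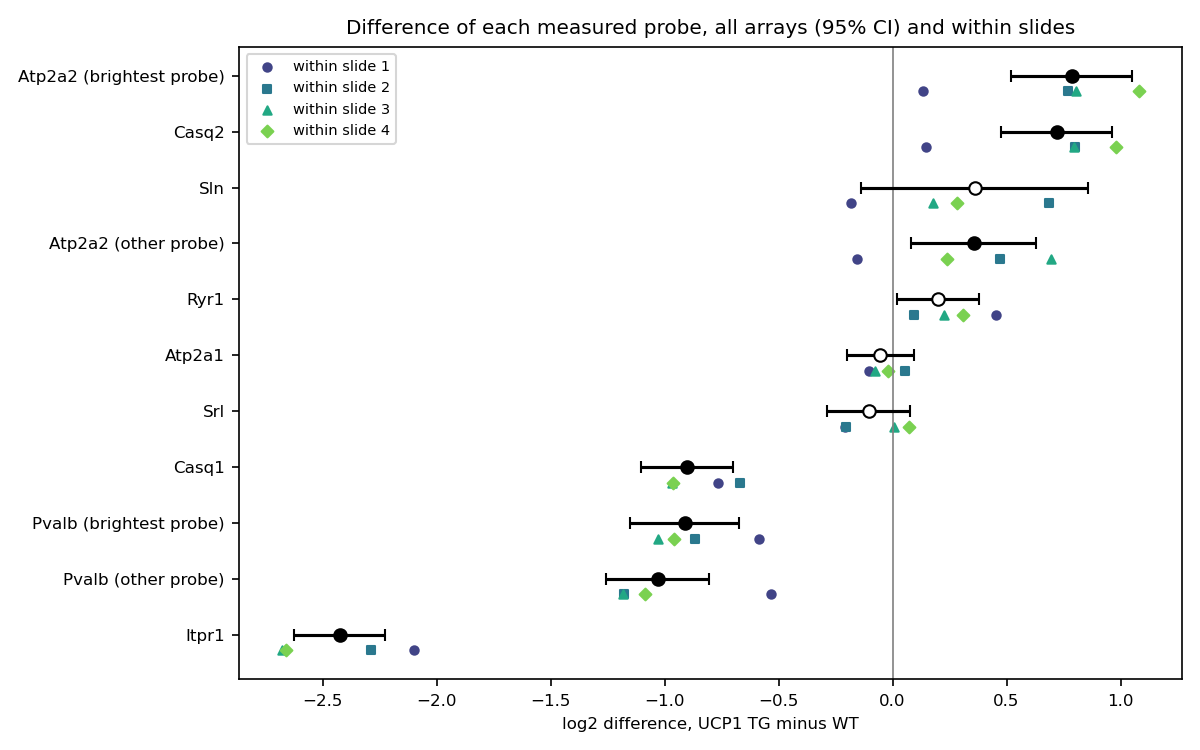
Difference UCP1 TG minus WT in log2 units (horizontal axis) for the 11 measured probes, with 95% confidence intervals and filled points where the adjusted p was at most 0.05; coloured marks give the difference within each of the 4 slides. Itpr1, both Pvalb probes and Casq1 lie below 0 on every slide, and Casq2 and the brightest Atp2a2 probe above 0 on every slide, least so on slide 1.

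**Figure D3:**
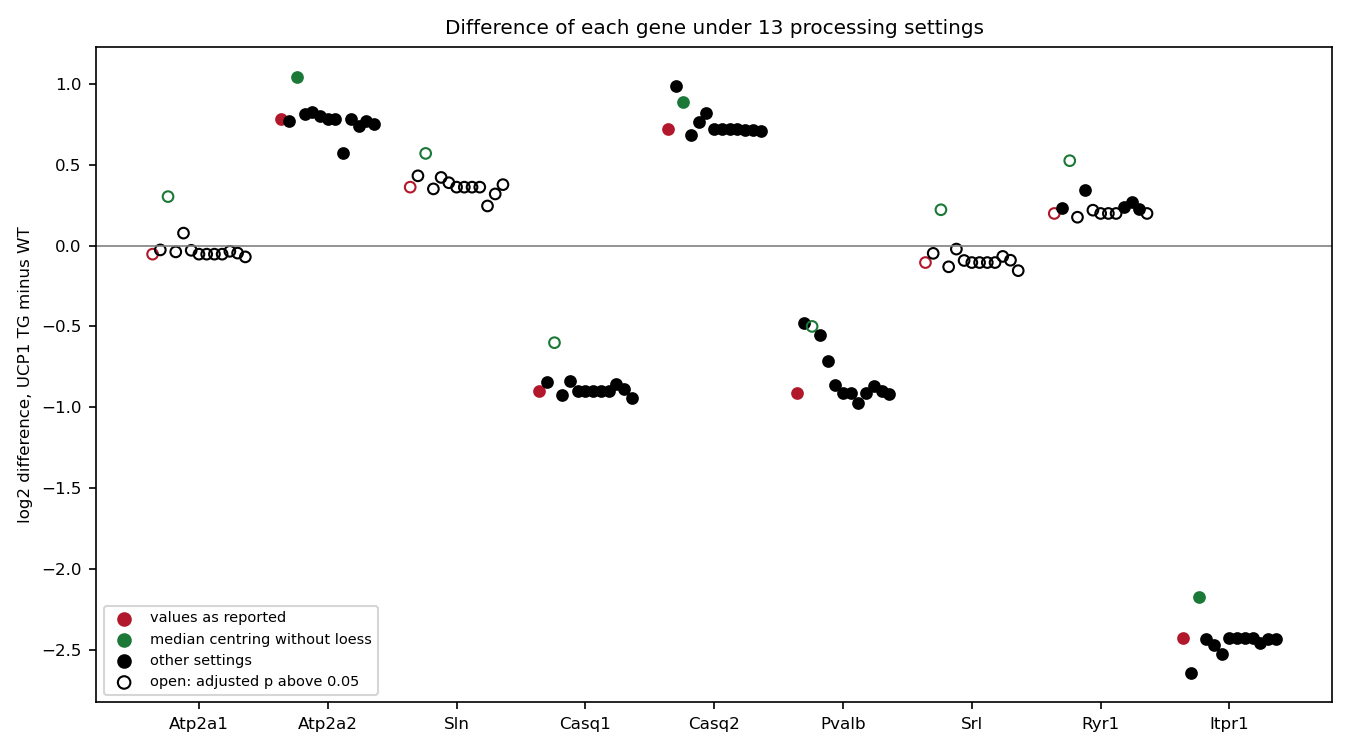
Difference UCP1 TG minus WT in log2 units (vertical axis) of the 9 genes under 13 ways of processing, the values of the text in red and median centring without loess in green, with open points where the adjusted p was above 0.05. Itpr1, Atp2a2 and Casq2 passed in all 13, Casq1 and Pvalb in all but median centring, and Atp2a1 and Srl crossed 0.

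The promoters of the calsequestrins and of Pvalb are shown because these 3 genes changed and a table of RefSeq starts held them; 6 of the 10 genes, with 7 entries, were matched there. Each line gives the 250 bases before the start in the sense of the gene, from GRCm38.p6, and these coordinates are not those of mm9. Capitals mark matches on either strand to the E-box, CANNTG, bound by the MyoD family, and to the MEF2 box, named here without its letters, bound by another family of muscle factors. No marked match overlaps another.
Casq1 (chr1:172219896-172220145, minus strand): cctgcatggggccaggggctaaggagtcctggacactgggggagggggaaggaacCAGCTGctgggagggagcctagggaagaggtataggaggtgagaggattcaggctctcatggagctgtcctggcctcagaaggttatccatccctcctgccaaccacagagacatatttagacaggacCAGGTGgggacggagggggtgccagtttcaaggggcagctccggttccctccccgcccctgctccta
Casq2 (chr3:102086165-102086414, plus strand): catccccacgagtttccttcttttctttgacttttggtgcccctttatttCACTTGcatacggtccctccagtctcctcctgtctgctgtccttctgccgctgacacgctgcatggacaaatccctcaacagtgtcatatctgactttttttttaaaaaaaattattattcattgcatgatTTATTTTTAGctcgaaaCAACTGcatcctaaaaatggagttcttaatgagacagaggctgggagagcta
Pvalb (chr15:78206401-78206650, minus strand): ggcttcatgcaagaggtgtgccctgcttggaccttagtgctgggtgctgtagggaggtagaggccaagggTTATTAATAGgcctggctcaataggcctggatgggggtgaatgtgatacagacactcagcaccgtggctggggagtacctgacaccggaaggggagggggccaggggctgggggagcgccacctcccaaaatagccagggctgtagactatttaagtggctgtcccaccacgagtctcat
The Casq1 window held 2 E-boxes and 0 MEF2 boxes. The Casq2 window held 2 E-boxes and 1 MEF2 box, and this Pvalb window 0 E-boxes and 1 MEF2 box. The window of a second Pvalb start (chr15:78204238-78204487), not printed, held 1 E-box and 0 MEF2 boxes. Of 32851 windows of the same length, 66.2% held an E-box and 2.92% a MEF2 box. These are matches of letters only.

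Atp2a2 and Casq2 were taken to mark slow fibres, and Atp2a1, Casq1 and Pvalb to mark fast fibres. Contractile genes of both fibre types were read beside them. Atp2a1, the fast-fibre pump, gave no call (-0.05, limma adjusted p = 0.60), unlike the others. Of 11 slow-fibre genes 9 rose and 0 fell, with a median difference of 0.88, and Myh7, the slow myosin heavy chain, was higher by 1.17 ± 0.16 (SE, limma adjusted p = 1.3e-05). Of 11 fast-fibre genes 1 rose and 8 fell, with a median of -0.65. The 1 that rose was Myh1, the myosin of type 2X fibres (0.62). Under median centring without loess the slow-fibre counts were the same, 9 and 0, while 1 fast-fibre gene rose and 0 fell. The mean log2 ratio of the 11 slow-fibre genes was 0.01 to 0.53 on UCP1 TG arrays and -1.06 to -0.05 on WT arrays. UCP1 TG 5 was the highest of its group and WT 1 the highest of its own, which are the arrays that stood out for Atp2a2 and Pvalb. In whole muscle, fewer fibres of a type and less RNA per fibre cannot be told apart.

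Within a group the relation of the genes to the slow-fibre mean was computed in 17 tests, with exact permutation of the arrays, and none passed after Benjamini-Hochberg adjustment over the 17. Atp2a2 followed the slow-fibre mean with r = 0.75 and rho = 0.75 in UCP1 TG mice (n = 7, two-sided exact p = 0.0256 and 0.0663, adjusted p = 0.0945). In WT mice r was 0.98 and rho 0.89 (n = 6, exact p = 0.00833 and 0.0333, adjusted p = 0.0708). Without the 2 arrays farthest from the median, r was 0.61 in UCP1 TG mice and 0.93 in WT mice. Casq2 had r = 0.73 and rho = 0.75 in UCP1 TG mice (n = 7, exact p = 0.0833 and 0.0663, adjusted p = 0.209), with r = 0.76 without 2 arrays. In WT mice Casq2 had r = 0.89 and rho = 0.77 (n = 6, exact p = 0.0278 and 0.103, adjusted p = 0.0945), but r was 0.17 without 2 arrays. Pvalb ran the other way with r = -0.98 and rho = -0.82 in UCP1 TG mice (n = 7, exact p = 0.00437 and 0.0341, adjusted p = 0.0708), but r was -0.51 without the 2 farthest arrays, so that value rests on them. In WT mice Pvalb had r = -0.73 and rho = -0.71 (n = 6, exact p = 0.0861 and 0.136, adjusted p = 0.209), and r was -0.26 without 2 arrays. Casq1 had r = -0.90 and rho = -0.77 in WT mice (n = 6, exact p = 0.0153 and 0.103, adjusted p = 0.0867), with r = -0.89 without 2 arrays, whereas in UCP1 TG mice r was -0.41 and rho 0.14 (n = 7, exact p = 0.438 and 0.783, adjusted p = 0.62) and r was 0.83 without the 2 farthest arrays, so no direction is given there. Itpr1 had r = -0.04 and rho = 0.21 in UCP1 TG mice (n = 7, exact p = 0.934 and 0.662, adjusted p = 0.934) and r = -0.52 and rho = -0.54 in WT mice (n = 6, exact p = 0.278 and 0.297, adjusted p = 0.473). Without 2 arrays its r was 0.15 in UCP1 TG mice and -0.24 in WT mice. Atp2a1 had r = 0.14 and rho = 0.11 in UCP1 TG mice (n = 7, exact p = 0.808 and 0.84, adjusted p = 0.858). In WT mice Atp2a1 had r = -0.33 and rho = -0.26 (n = 6, exact p = 0.474 and 0.658, adjusted p = 0.62). Without the 2 farthest arrays its r was 0.89 in UCP1 TG mice and 0.64 in WT mice, so no direction is given for Atp2a1.

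**Figure D4:**
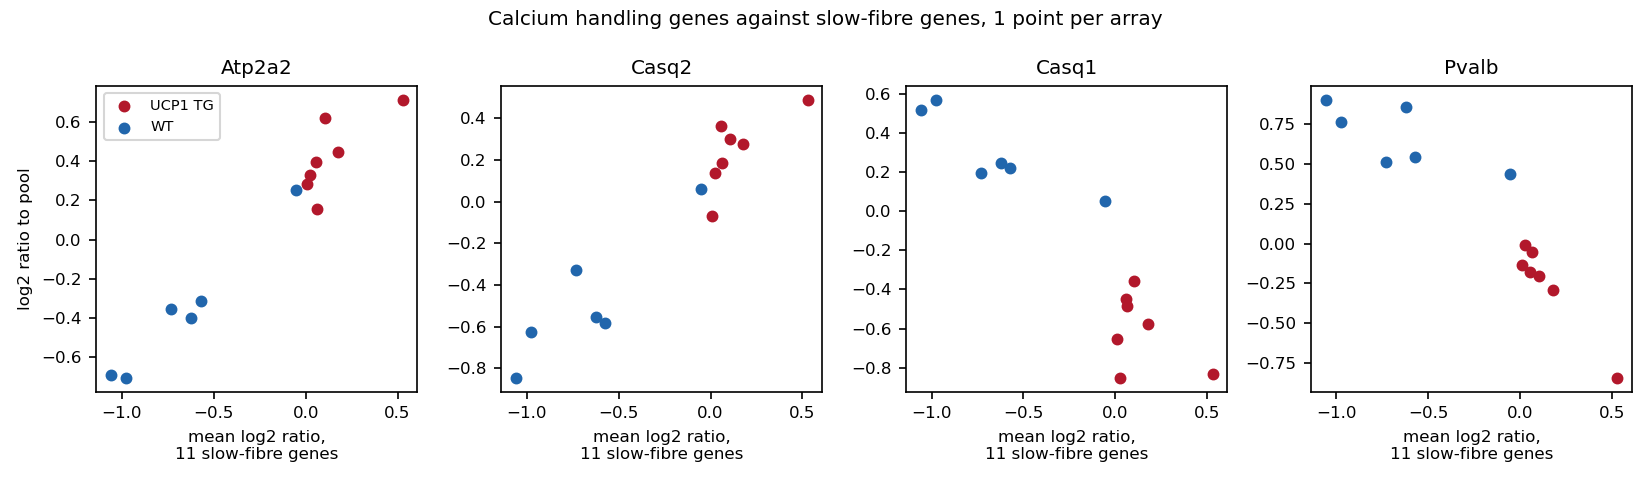
Log2 ratio of 4 genes that passed the threshold, Atp2a2, Casq2, Casq1 and Pvalb (vertical axis), against the mean log2 ratio of 11 slow-fibre genes (horizontal axis). There is 1 point per array, UCP1 TG in red and WT in blue. Atp2a1, which gave no call, is not drawn. UCP1 TG arrays lie at 0.01 to 0.53 and WT arrays at -1.06 to -0.05 on the horizontal axis, and the WT array nearest the UCP1 TG arrays is WT 1.

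Deviations from the group means, over all 13 arrays, described how the genes varied from mouse to mouse. Atp2a2 and Casq2 varied together (r = 0.87), and Pvalb varied against both (r = -0.71 with Atp2a2 and -0.69 with Casq2). Casq1 and Pvalb had r = 0.51. Itpr1 had r between -0.27 and 0.32 with the genes it was set against.

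Markers of other cells were read as well. Among all genes 33.0% passed, 16.9% higher and 16.1% lower. All 6 measured white adipocyte genes rose, with a median of 0.86. Their mean log2 ratio was -0.26 to 0.47 on UCP1 TG arrays, -0.04 on WT 4 and -0.75 to -0.52 on the other 5 WT arrays. Under median centring without loess 4 of these 6 rose. Of 7 nerve and Schwann cell genes 4 rose and 0 fell, but 0 rose under median centring. Of 6 fibroblast genes 2 rose and 0 fell in both scalings. Of the 2 heart genes tested, Myh6 rose (0.51, limma adjusted p = 0.00103) and Tnnt2, at 0.09, did not pass. Of 5 brown adipocyte genes 1 rose and 1 fell, and 0 and 0 under median centring. In each of the smooth muscle (5 genes), endothelial (7 genes) and macrophage (6 genes) lists 0 rose and 1 fell, with 0 and 0 under median centring, and of 3 satellite cell genes 0 passed. Of the 10 skeletal muscle fibre markers 0 rose and 6 fell, with 0 and 0 under median centring without loess; Ckm was at -0.03 and Ttn at 0.08, neither of which passed. The part of these cells in the differences of the set was not tested.

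The rest of the calcium machinery was read from 6 lists with 109 tested genes, of which 16 rose, 37 fell and 56 gave no call. Their median difference was -0.05. Among all genes 16.9% rose and 16.1% fell, and the counts of each list below are to be read beside these shares. The triad is the junction of tubule and reticulum. Of 20 triad and release genes 3 rose and 11 fell, with a median of -0.24. Cacnb1, a subunit of the tubule's voltage sensor, rose by 0.51, the phosphatase Mtm1 by 0.43 and Cacng1, another sensor subunit, by 0.38. Asph on its brightest probe fell by 1.01, the sensor's adaptor Stac3 fell by 0.77 and Cacng6 fell by 0.58. The Asph gene gives several products, and its other probes read -0.90, 0.42 and 0.21. Under median centring without loess 1 gene of this list rose and 0 fell, and its median was 0.04.

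Of 15 pump regulators and luminal proteins 7 rose and 1 fell, with a median of 0.22. Rcn1, a calcium binding protein of the lumen, rose by 0.72, Hax1, which binds phospholamban, by 0.52, and the chaperone Canx by 0.45. Mrln, described above, was the 1 that fell. Under median centring without loess 2 rose and 1 fell. Rcn1, Hax1 and Mrln also passed under median centring without loess, where Canx had an adjusted p of 0.0511.

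The IP3 pathway makes and removes the messenger that opens the Itpr1 channel. Of its 18 tested genes 3 rose, 4 fell and 11 gave no call, and the median difference was 0.03. The phospholipases Plcd1 and Plcd3, which make IP3, went opposite ways, by 0.74 ± 0.09 and -0.76 ± 0.07 (SE, limma adjusted p = 4.43e-06 and 2.07e-07), each without overlap of the groups. Of the other receptor genes, Itpr3 rose by 0.17 (limma adjusted p = 0.0331), and Itpr2, at 0.10, did not pass (adjusted p = 0.455), beside -2.42 for Itpr1. The Itpr3 call was lost under 3 of 12 settings and in 6 of 13 leave-outs of 1 array (UCP1 TG 3, 5 and 6, WT 1, 2 and 5), with differences of 0.14 to 0.19 and adjusted p up to 0.0837 in the leave-outs. Plcl2 rose by 0.34, and Inpp5a, which removes a phosphate from IP3, and Plcl1 fell by 0.25 and 0.24. The Inpp5a call was lost in 4 leave-outs (UCP1 TG 2 and 4, WT 5 and 6; adjusted p up to 0.0729) and that of Plcl1 in 1 (WT 5, adjusted p = 0.0538) and with a filter on all arrays (-0.14, adjusted p = 0.2). Under median centring without loess 1 gene of the list rose and 1 fell, and of those named here only Plcd1 and Plcd3, besides Itpr1, passed.

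Of 16 genes of store-operated entry and export across the plasma membrane 1 rose and 5 fell, with a median of -0.09. Homer1 and Homer2 encode scaffolds that bind the IP3 and ryanodine receptors. Homer1 fell by 1.21 ± 0.09 (SE, limma adjusted p = 2.54e-09) and Homer2 rose by 0.71 ± 0.10 (SE, limma adjusted p = 1.48e-05), both without overlap and both also past the threshold under median centring. All 5 Homer1 probes read below 0, from -1.21 to -0.42. The plasma membrane pump Atp2b1 and the store-operated channel Orai1 fell by 0.36 and 0.34, but under median centring without loess they were at -0.16 and -0.13 and did not pass (adjusted p = 0.668 and 0.705). Of 11 genes of mitochondrial calcium uptake 0 rose and 2 fell, Vdac1 at -0.40 and Smdt1 (1500032L24Rik), a regulator of the uniporter, at -0.23, and neither passed under median centring.

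Among 29 genes of calmodulin, its kinases and calcineurin 2 rose and 14 fell, with a median of -0.24. Under median centring without loess 1 rose and 3 fell, and the median was -0.03. Myoz2 and Myoz3 encode calsarcins, which tie calcineurin to the Z disc, and in mouse muscle Myoz2 is known from slow and heart fibres and Myoz3 from fast fibres. Myoz2 rose by 0.77 ± 0.16 (SE, limma adjusted p = 0.000881) and Myoz3 fell by 1.72 ± 0.12 (SE, limma adjusted p = 8.08e-10) on its brightest probe, with -0.53 on its other probe. The kinase Camk2d rose by 0.23, and the kinase Camk2b fell by 1.00. Of these 4 genes, Camk2d alone did not pass under median centring (0.47, adjusted p = 0.142).

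**Figure D5:**
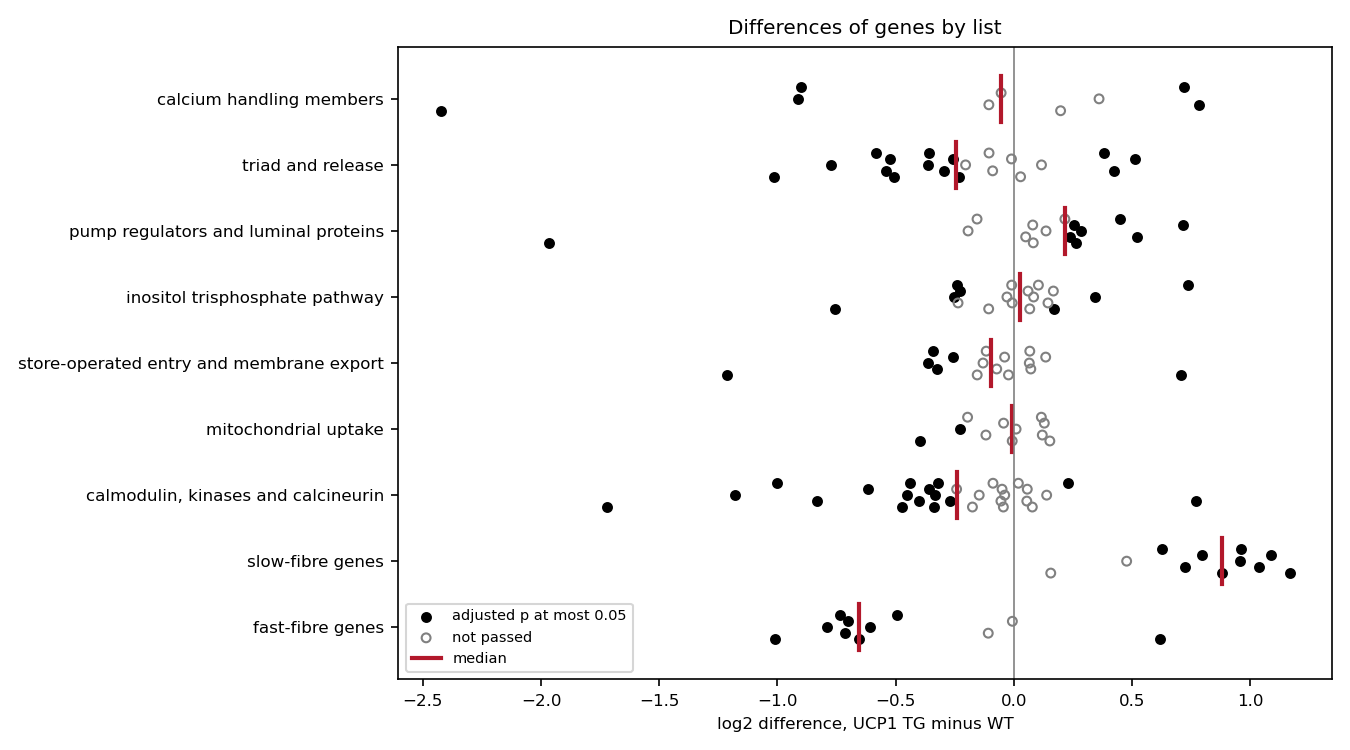
Difference UCP1 TG minus WT in log2 units (horizontal axis) of each tested gene, by list, with filled points where the adjusted p was at most 0.05 and a red bar at the median of the list. The 6 lists of other calcium genes have medians between -0.24 and 0.22, and the slow-fibre and fast-fibre lists lie at 0.88 and -0.65.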

How the data were processed

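Gene expression was measured on 2-colour Agilent 8x60K arrays, from 200 ng of RNA per mouse, per the labels. The deposited scanner files give, per the file headers, the linear intensity of each spot and of its background in Cy5 and Cy3 and a log10 ratio of Agilent's processed signals; they were written by Agilent Feature Extraction 10.5.1.1, per the submitters' processing notes. Flag columns, other values per the file headers, mark controls, outliers, saturation and detection. The authors' deposited value table (25583 rows) was taken as log2 intensities of the Cy5 channel. Each column has a median of 7.58 and an r of 0.996 to 0.999 with its own array's Cy5 signal. Its normalization is not given in the sources used here. No dyes were swapped. Replicates are separate mice, 1 array each.

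Mean signals were corrected by normexp (offset 50), log2 ratios were normalized by loess within arrays (limma 3.58.1, R 4.3.3), and controls and outlier spots (278 to 377 per array) were left out. Probes detected in Cy5 (flagged well above background) on 6 or more of 13 arrays were kept (22716 probes), and each gene was represented by its brightest one. Groups were compared with lmFit and eBayes, two-sided, with Benjamini-Hochberg adjustment over all genes or all probes. The fit was checked on simulated data. Names came from GRCm38.p6 for 11860 genes through the accession, for 745 through the symbol and for 119 through older symbols; the other 4533 carry the array's name. Alternatives were other signals, scalings, filters, the slide as a block and leaving out each array. The members, lists and tests were chosen with earlier results of these data known. Beside the members and Ucp1, the text names the 3 highest and 3 lowest genes that passed in each calcium list, the 3 genes most like Itpr1 and Pvalb, and genes that mark a cell or fibre type. Itpr2 and Plcd4 were named after their values were seen, and 1 gene that this rule names is not reported here.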

Additional observations from a re-analysis of the deposited data

Results flagged for a closer look

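Of 24 groups of arrays tested for an array far from the others (each of the 12 probes in each group), 2 had such an array, where chance gives about 1 in 20, and both were UCP1 TG 5. On the dimmer Atp2a2 probe it read 0.73, and the next highest UCP1 TG array read 0.05. On the brightest Pvalb probe it read -0.84, and the next lowest UCP1 TG array read -0.29. The same array had the highest slow-fibre mean of its group, 0.53. The part of fibre makeup in these values was not tested.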

How the results depend on the processing

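Of the 9 genes, 2 to 3 rose under the 12 other settings and in every leave-out of an array, and 3 fell in all but 1 setting. Median centring without loess left 1 gene of the set that fell, 1303 genes called in all, 3 probes of the set called, and 6 higher and 6 lower among the other calcium genes. In that setting Atp2a1 (0.30), Srl (0.22), Inpp5a (0.0096), Smdt1 (1500032L24Rik, 0.11) and Plcd4 (0.10) were among the genes that changed sign. Other calcium genes that had passed as lower, not named here, changed sign as well. Atp2a1 also did so in the authors' value table (0.077). The cause was not tested. The mean over probes put Atp2a2 at 0.57. Leaving out each array in turn gave 2 to 3 genes of the set higher and 3 lower, 6 to 7 of its probes called, 5138 to 5708 genes in all, and 12 to 16 higher and 32 to 40 lower among the other calcium genes. With the replicate number as a block, 5369 genes passed, 2 of the set higher and 3 lower. Same-numbered arrays deviated together at -0.23 to 0.23, so the numbers were not taken to pair the mice. Ratios of probes near background are drawn toward 0 by the offset, which limits Pln.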

Other observations

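The genes whose deviations from the group means were most like those of Itpr1 over the 13 arrays were Cmtm8 (r = 0.90), Pdpn (r = 0.88) and Insig1 (r = 0.87). Between the groups they differed by 0.21, -0.04 and -0.03 on the log2 scale, against -2.42 for Itpr1, and none passed the threshold (limma adjusted p = 0.0758, 0.748 and 0.77). For Pvalb they were Krtap10-10 (r = 0.90), Pcbp2 (r = 0.88) and a noncoding region of chromosome 3 that the array does not name (r = 0.88). Krtap10-10 and Pcbp2 were both lower, by -0.23 (limma adjusted p = 0.0254 and 0.0148). The arrays share the reference pool and these genes were picked as the highest of all genes, so the correlations are a description.

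The 4 Plcd4 probes disagreed, with differences of -0.23 on the brightest and -1.02, -1.18 and -0.18 on the others. The probe at -0.18 did not pass (limma adjusted p = 0.25 over all probes). As a gene, Plcd4 was at 0.10 under median centring without loess and at -0.11 in the authors' value table. It passed in neither (limma adjusted p = 0.787 and 0.333).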
